A study of Mus musculus with 2 samples.

Results

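Macrophages that make the complement protein C1q were picked out of cells of uninjured mouse periosteum, the membrane around bone, and set beside barcodes picked in the same way at day 3 after a tibial fracture. A barcode, the tag of 1 droplet, was retained with at least 500 genes, at least 1000 UMIs (unique molecular identifiers, each counting 1 captured transcript) and at most 10% mitochondrial UMIs. The C1q barcodes were then those with at least 10 UMIs of C1qa, C1qb and C1qc together, under 3 of EGFP and under 5 of Acp5 per 10000 UMIs. In the uninjured library 1121 of 4431 retained barcodes met the rule (25.3%, exact 95% interval 24.0 to 26.6). At day 3 it was 4918 of 14463 (34.0%, 33.2 to 34.8), out of 18894 retained barcodes in all. Because the barcodes were selected on their measured C1q, EGFP and Acp5 values, the levels of these genes describe the choice and are not results.

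Both groups were periosteal cells of Prx1Cre;mTmG mice, with 1 library of uninjured periosteum and 1 of periosteum at day 3 of fracture healing. Cre under the Prx1 promoter, which is active in limb mesenchyme, switches a cell and its descendants from membrane tdTomato to membrane EGFP. The labels name the cells as derived from Prx1 cells but state that all live cells were sequenced. The sources used here give neither age, sex nor number of the mice. The protocols describe explant outgrowth in medium with serum and bFGF until near confluence, whereas the series' design text states that no expansion was done. With 1 library per group there was no test, the intervals cover counting error only, and injury, the mice, any culture and the library cannot be told apart.

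C1q is the recognition protein of the classical complement pathway, and its several chains are made mainly by tissue macrophages. It binds antibody complexes and dying cells and aids their uptake. Macrophages beside bone clear cell remnants, recycle iron and lipid, and reach bone-forming cells through secreted factors. After a fracture, blood monocytes enter the tissue and mature there into further macrophages. The genes of the C1q chains lie next to each other on the minus strand of chromosome 4 in GRCm38. C1qb runs from 136880129 to 136886187, C1qc from 136889804 to 136893065 and C1qa from 136895917 to 136898803. Of the other markers of these cells, Pf4 lies on chromosome 5 (90772435 to 90773383) and Apoe on chromosome 7 (19696109 to 19699188).

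The C1q barcodes held 12780709 UMIs in the uninjured library (1033 to 35788 per barcode, median 10815) and 32604441 at day 3 (1009 to 49134, median 5662). Their median mitochondrial share was 2.88% and 4.32%. Xist was found in 0.178% of the uninjured and 71.0% of the day-3 C1q barcodes, and Y-linked genes in 59.5% and 14.7%, so the mix of female and male mice differed between the libraries. The libraries shared 3 barcode sequences. Levels below are UMIs summed over the barcodes of a group, scaled to 1000000 UMIs of that group (CPM). A 3′ tag counts a transcript once whatever its length, so levels are not divided by length.

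The C1q limit fell into a sparse range in the uninjured library and into a well-filled one at day 3. Of uninjured barcodes low in EGFP and Acp5, 1121 of 1362 lay at or above the limit. Between 9 and 10 per 10000 UMIs there were 13 barcodes, and between 10 and 11 there were 15. At day 3 the same counts were 4918 of 8708, 212 and 170. The uninjured barcodes just outside and just inside the limit held Tyrobp, an adaptor of myeloid receptors, at 1715 and 1419 CPM. At day 3 these values were 1381 and 1457 CPM. The uninjured ones also held Col1a2, a collagen gene, at 547.5 and 560.9 CPM, against 174 CPM over all uninjured C1q barcodes. Pf4 stood there at 2202 and 1168 CPM. The day-3 ones held S100a8, a neutrophil gene, at 965.5 and 994.5 CPM, against 608 CPM over all day-3 C1q barcodes. Barcodes near the limit thus held transcripts of other cells too. The sum of the C1q genes per 10000 UMIs ran from 10.2 to 190 with a median of 51.4 in the uninjured C1q barcodes, and from 10 to 144 with a median of 26.4 at day 3.

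**Figure D1:**
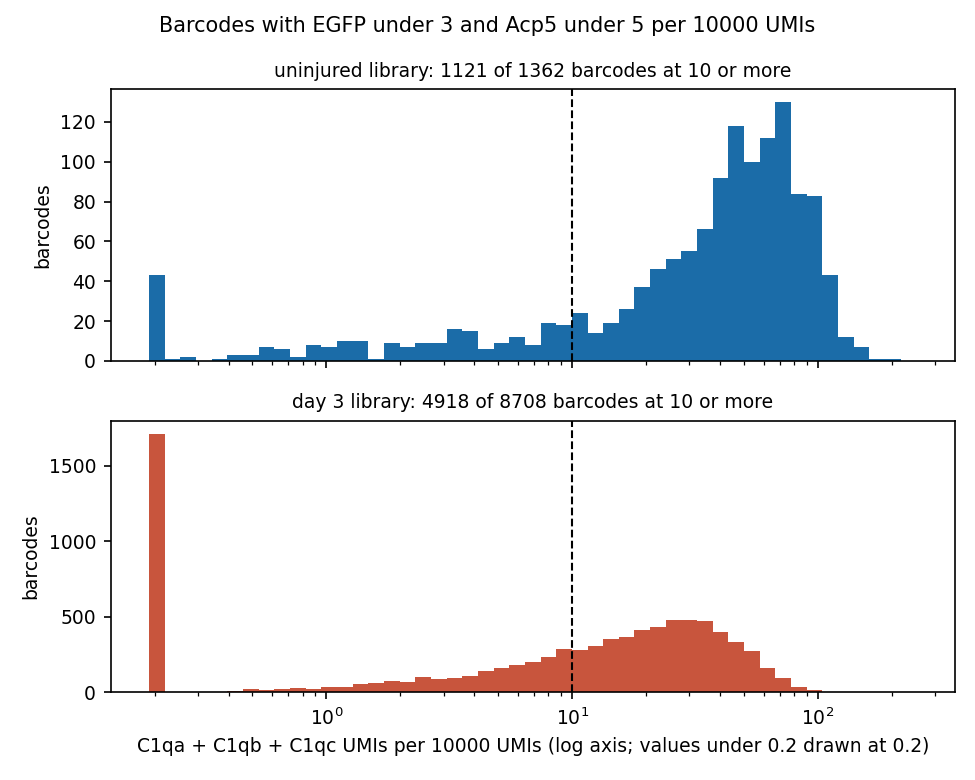
Number of barcodes (vertical axis) by summed C1qa, C1qb and C1qc UMIs per 10000 UMIs (log axis), for barcodes low in EGFP and Acp5, in the uninjured library (top) and at day 3 (bottom). The dashed line is the limit of 10: the uninjured barcodes form a group above it, 1121 of 1362, while the day-3 barcodes spread across it, 4918 of 8708.

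Genes that the rule did not use were those of macrophages in most of these barcodes. Over the 18 genes of the macrophage core list, which holds receptors, adaptors and regulators shared by most macrophages, the summed level was 24654 CPM, against 2585 CPM in all other retained uninjured barcodes. In 2103 uninjured barcodes with at least 10 EGFP per 10000 UMIs and C1q below the limit, called EGFP-rich here, it was 661 CPM. No gene of the list was at 0, and 17 of 18 reached 10 CPM. EGFP stood at 81.6 CPM in the C1q barcodes and 2670 CPM in the EGFP-rich ones. The unswitched reporter tdTomato was nearly absent throughout, at 2.11 and 0.0891 CPM.

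The rule also left out C1q-bearing barcodes that carried the genes of other cells. A further 452 uninjured barcodes had C1q above the limit together with at least 3 EGFP per 10000. They held the macrophage core list at 9884 CPM and the fibroblast list, made of collagens and other matrix genes, at 5155 CPM, with a median depth of 23111 UMIs. The C1q barcodes themselves held the fibroblast list at 672 CPM. Another 13 barcodes failed only on Acp5, the tartrate-resistant phosphatase of osteoclasts, and held the osteoclast list at 4866 CPM against 105 CPM in the C1q barcodes. The levels of EGFP and Acp5 in these groups follow from the rule, and Acp5 is part of the osteoclast list.

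Of the genes at 50 CPM or more, those highest in the C1q barcodes relative to the rest of the uninjured library were receptors and secreted proteins of macrophages. Ms4a6b, a membrane protein of myeloid cells, stood at 65.7 CPM against 4.22 CPM in the rest, 15.6 times as high. Fcgr1, the high-affinity receptor for IgG, was 13.9 times as high, and C5ar1, the receptor for complement fragment C5a, 13.6 times. The chemokines Ccl4 and Ccl3, which attract monocytes and lymphocytes, were 13.8 and 13.2 times as high. Apart from the marker genes C1qa, C1qb, C1qc and Apoe, the remaining genes of the 15 were Ms4a7, Ms4a6c, Ms4a6d, Fcrls, Sirpb1c and Tmem171, at 11.8 to 13.5 times the level in the rest. In the EGFP-rich barcodes these genes, Ms4a6b, Fcgr1, C5ar1, Ccl4 and Ccl3 among them, stood at 0.891 to 6.92 CPM.

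Of the genes ranked by level, the most abundant in the uninjured C1q barcodes belonged to iron storage, lysozyme and the cytoskeleton. Ribosomal protein and mitochondrial genes, which summed to 216734 and 29317 CPM, were left out of this ranking. The ferritin light and heavy chain genes Ftl1 and Fth1 stood at 53133 and 30380 CPM. The EGFP-rich barcodes held them at 12399 and 10406 CPM. Lyz2, the lysozyme of phagocytes, stood at 15514 CPM and was found in every C1q barcode, at 9.80 to 953 UMIs per 10000. Pf4, a platelet-type chemokine also made by macrophages, stood at 4343 CPM. Spp1, osteopontin, a secreted protein that binds mineral and integrins, stood at 3662 CPM and ranged from 0 to 494 per 10000 between barcodes. At day 3 Spp1 stood at 4535 CPM in the C1q barcodes and 16146 CPM in the EGFP-rich ones. Also among the 15 were Actb, actin, the actin-binding genes Tmsb4x and Pfn1, the galectin Lgals1, the peroxidase Prdx1, and Malat1, Fau, S100a6, Eef1a1 and Sh3bgrl3.

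Genes of resident tissue macrophages were detected in part. Of 20 genes of the resident list, 8 reached 10 CPM in the uninjured C1q barcodes and 5 had no UMI. Lyve1, the hyaluronan receptor of perivascular macrophages, Timd4, a receptor for dying cells, and Vsig4, a complement receptor, were among those with 0 UMIs. A count of 0 allows at most 3 UMIs of 12780709. Cd163, the haemoglobin receptor, stood at 2.97 CPM. The mannose receptor Mrc1 was present at 231 CPM, the scavenger receptor Stab1 at 207 CPM, the transglutaminase F13a1 at 67.1 CPM and the folate receptor Folr2 at 48.0 CPM. The genes Lyve1, Timd4, Vsig4 and Cd163 were singled out after their values were seen.

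Antigen presentation genes of MHC class II were low, and some were no higher than in cells that should lack them. Cd74, the invariant chain, stood at 11.3 CPM in the uninjured C1q barcodes and 4.31 CPM in the EGFP-rich ones. H2-Aa and H2-Eb1, chains of the class II molecule, stood at 0.469 and 0.548 CPM. The EGFP-rich barcodes held them at 0.356 and 1.10 CPM. H2-Ab1 stood at 6.57 against 1.93 CPM. The list of 7 genes summed to 73.1 CPM, of which H2-DMa and H2-DMb1, which help to load peptides, made up 23.1 and 31.1 CPM.

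Genes for uptake and lipid handling were well represented, while secreted growth factors as a list stood close to the rest of the library. The fatty acid receptor Cd36 stood at 402 CPM, Trem2, a lipid-sensing receptor, at 628 CPM, and Lgals3, galectin-3, at 2499 CPM. The lysosomal proteases Ctsb and Ctsd stood at 2086 and 1522 CPM and the lysosomal activator Psap at 1499 CPM. Hmox1, the haem-degrading enzyme, stood at 838 CPM, and Slc40a1, the iron exporter, at 31.9 CPM. Of secreted factors, the growth factor Igf1 stood at 442 CPM, Gas6, a bridge between dying cells and their receptors, at 329 CPM and Tgfb1 at 254 CPM. In the EGFP-rich barcodes Igf1, Gas6 and Tgfb1 stood at 94.4, 173 and 35.5 CPM. Thbs1 and Sparc, of the same list of 23 secreted growth factor genes, went the other way. They stood at 29.7 and 191 CPM in the C1q barcodes and at 355 and 2476 CPM in the EGFP-rich ones. The list summed to 6225 CPM in the C1q barcodes and 6211 CPM in all other retained uninjured barcodes.

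Inflammatory genes were low apart from several chemokines. Of 17 inflammatory cytokine genes, 4 reached 10 CPM in the uninjured C1q barcodes and 3 had no UMI. Tnf stood at 27.9 CPM, and the inflammasome gene Nlrp3 at 25.7 CPM. Among chemokines, Ccl9 stood at 892 CPM, Ccl6 at 442 CPM and the monocyte chemokine Ccl7 at 122 CPM. Ccl7 was higher in the EGFP-rich barcodes, at 194 CPM.

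Markers of other blood and stromal cells were low. The neutrophil list summed to 34.6 CPM with 3 of 12 genes at 0, the monocyte list to 72.6 CPM with 1 of 10 at 0, and the lymphoid list to 23.0 CPM with 7 of 12 at 0. The dendritic cell list summed to 27.5 CPM with 6 of 11 at 0, and its gene Itgax stood at 1.96 CPM. Mast cell, endothelial, erythroid and muscle lists summed to 0.391, 6.42, 0.0782 and 3.44 CPM. The mural list summed to 152 CPM, of which Acta2, smooth muscle actin, made up 121 CPM, against 2056 CPM in the EGFP-rich barcodes.

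**Figure D2:**
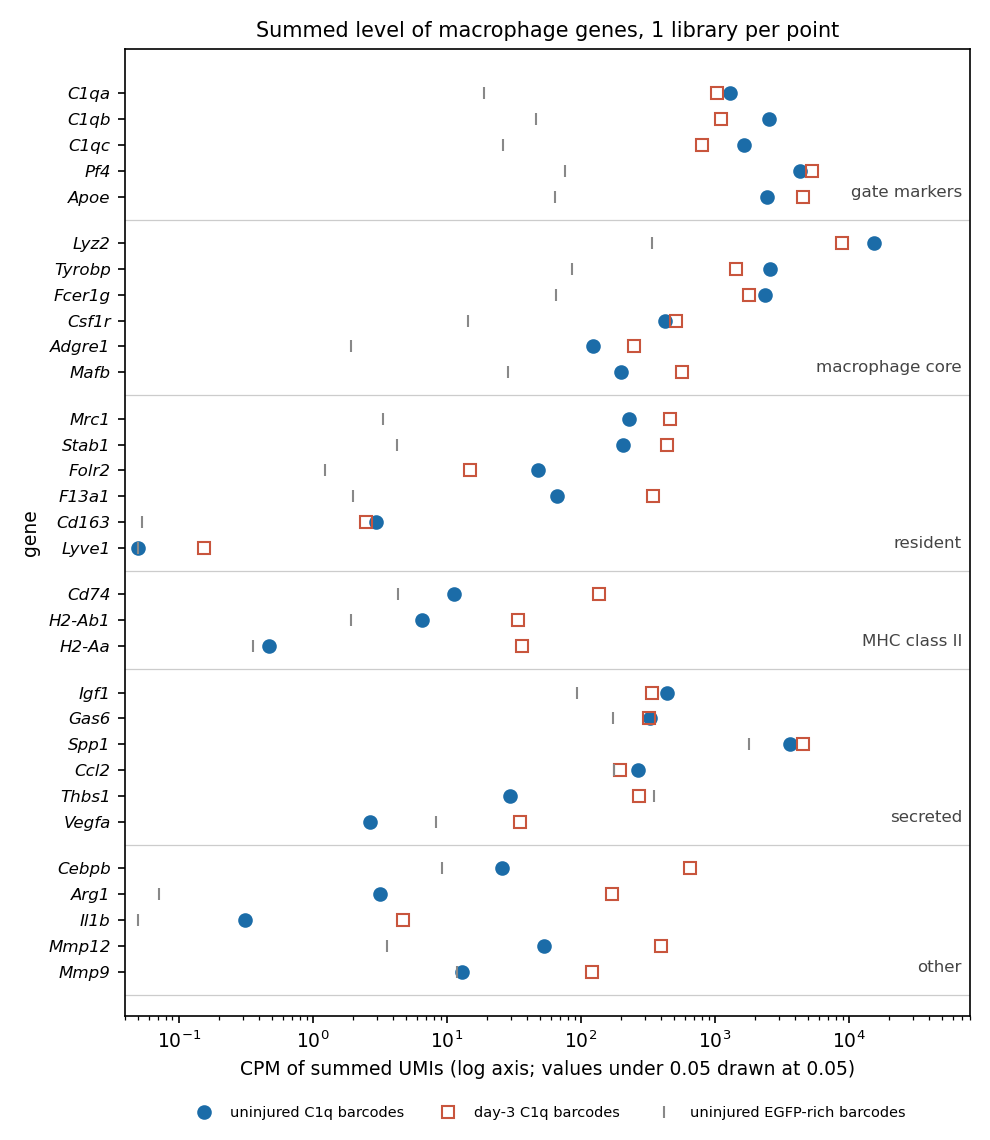
Summed level in CPM (log axis) of 31 genes by role in uninjured C1q barcodes (filled circles), day-3 C1q barcodes (open squares) and uninjured EGFP-rich barcodes (bars), 1 library per point. Lyz2 stood at 15514, 8849 and 341 CPM in that order, while Lyve1 was at or near 0 in each, and Arg1 stood at 3.21, 171 and 0.0713 CPM.

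Clustering of the 1121 uninjured C1q barcodes gave 6 clusters, which are called by number since their own genes formed them. Clusters 0, 1, 2 and 3 held 357, 300, 245 and 120 barcodes, and clusters 4 and 5 held 51 and 48. The number depended on the resolution, with 4 clusters at 0.3 and 10 at 1. All values for clusters are descriptions.

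Cluster 0 was led by a metalloelastase, chemokines and osteopontin. Mmp12, macrophage elastase, stood at 116 CPM against 25.7 CPM in the other C1q barcodes, and the neutrophil chemokine Cxcl2 at 59.1 against 13.3 CPM. Tnip3, an inhibitor of NF-κB signalling, stood at 114 against 55.4 CPM. The monocyte attractants Ccl7 and Ccl12 followed at 180 and 53.2 CPM. Spp1 stood at 5270 CPM here and at 1572 to 4229 CPM in the other clusters. Only 11.1% of this cluster's barcodes counted as dividing after thinning to equal depth.

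Cluster 2 was led by genes of several kinds, with Apoe first. Apoe, the lipid carrier, stood at 6139 CPM against 1760 CPM in the other C1q barcodes, and Slc40a1 at 78.0 against 23.5 CPM. Clec4n, dectin-2, a receptor for fungal sugars, stood at 367 against 108 CPM. Ccl6 stood at 1040 against 333 CPM, F13a1 at 148 against 52.2 CPM, and Pla2g7, which degrades platelet-activating factor, at 77.5 against 28.1 CPM. The resident list summed to 3296 CPM in cluster 2 and to 495 to 1965 CPM elsewhere. Lyz2 was 24824 CPM, Mrc1 392 CPM, Gas6 594 CPM and Spp1 2050 CPM. Its barcodes were shallower than those of the other clusters, with a median of 7855 UMIs, and 7.17% counted as dividing.

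Clusters 1 and 3 were led by genes of DNA packaging and mitosis. In cluster 1 the histone genes Hist1h1b and Hist1h2ap stood at 67.4 and 1223 CPM against 7.86 and 143 CPM, and Top2a, topoisomerase II alpha, at 368 against 62.3 CPM. Pbk, Aurkb and Prc1, genes of mitosis, completed its 6 leading genes. In cluster 3 the centromere histone Cenpa stood at 587 against 148 CPM and the anaphase activator Cdc20 at 139 against 39.7 CPM. Cdkn3, Hmmr, Kif20a and Knstrn led with them. Counted at equal depth, 81.9% of cluster 1 and 85.8% of cluster 3 were dividing. Dividing barcodes were not confined to them, as the share was 62.2% in cluster 4 and 48.9% in cluster 5. Clusters 1 and 3 kept the macrophage core list at 23286 and 25634 CPM.

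Cluster 4, with 51 barcodes, had less C1q than clusters 0 to 3, though cluster 5 had still less, at a median of 18.6 per 10000 UMIs. Its resident list, at 495 CPM, was below that of every other cluster. Traf1, an adaptor of TNF receptors, stood at 122 against 7.21 CPM, Cav1, caveolin, at 126 against 14.0 CPM, and Sdc1, a syndecan, at 134 against 15.1 CPM. The transcription factor Bhlhe40, the ubiquitin ligase Rnf19b and the receptor Igf2r stood at 54.1, 112 and 52.7 CPM. The median C1q sum was 23.4 per 10000 UMIs, and Maf, a regulator of tissue macrophages, stood at 20.8 CPM against 199 to 427 CPM in the other clusters. Spi1, PU.1, was at 722 CPM.

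Cluster 5 went against the label. Its leading genes were those of mesenchymal cells: the glutamate transporter Slc1a3, the hyaluronan synthase Has2, the Wnt modulator Sfrp1, the growth arrest gene Gas1, the transcription factor Ebf1 and the receptor Pdgfrb. From Pdgfrb to Gas1 these stood at 58.6 to 423 CPM, against 0.759 (Slc1a3) to 6.91 CPM (Gas1) in the other C1q barcodes. The fibroblast list summed to 5281 CPM, against 308 to 362 CPM in clusters 0 to 4, and EGFP to 198 CPM against 65.4 to 77.5 CPM. The macrophage core list still summed to 10149 CPM, and the median depth of 18361 UMIs was above that of every other cluster. These 48 barcodes are not called macrophages here. By a rule made after the data were seen, 48 uninjured barcodes (4.28%) and 15 day-3 barcodes (0.305%) had at least 20 fibroblast-list UMIs per 10000.

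**Figure D3:**
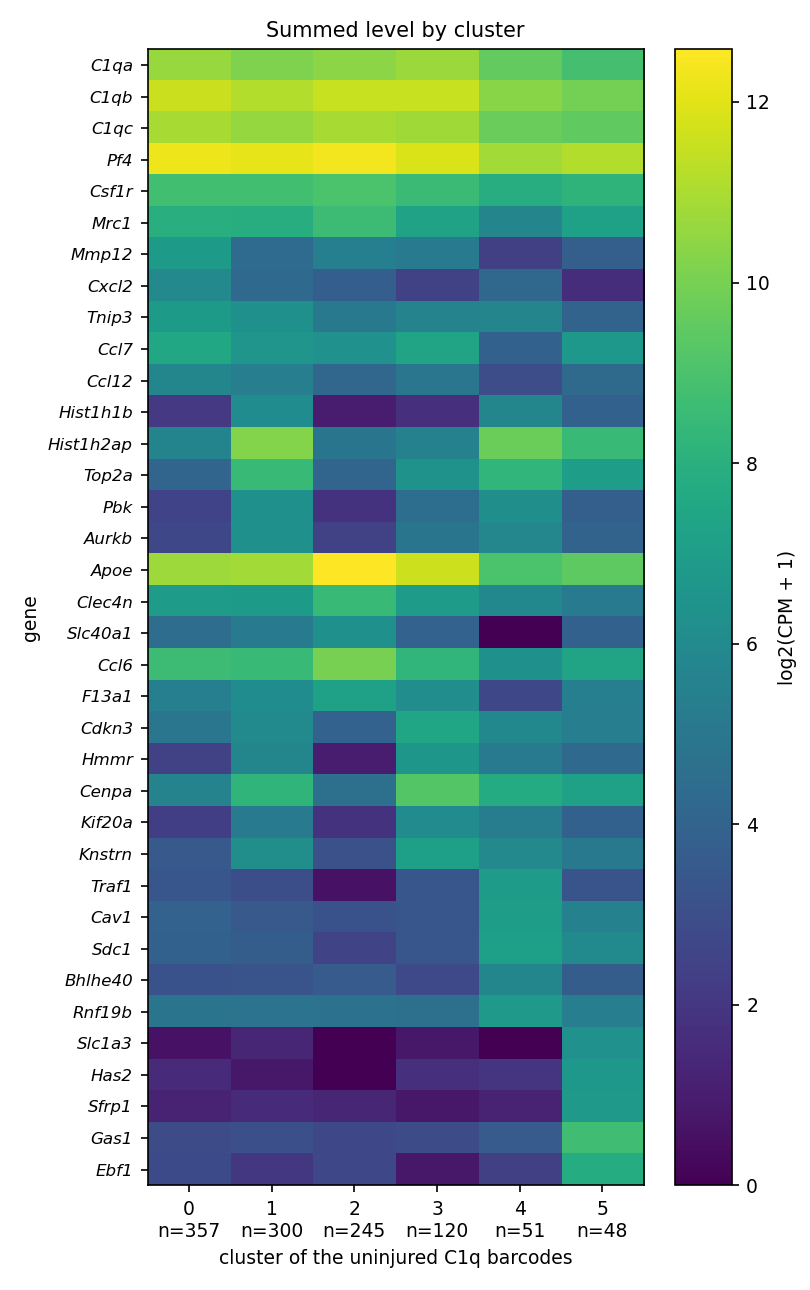
Summed level, log2(CPM + 1), of shared macrophage genes (top rows) and of the 5 leading genes of each cluster, in the 6 clusters of uninjured C1q barcodes, with the number of barcodes under each. Mesenchymal genes such as Gas1 (423 CPM) stand in cluster 5, which has 48 barcodes, and Apoe is brightest in cluster 2, at 6139 CPM.

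The comparison with day 3 asked how C1q macrophages of fractured periosteum differed from those of uninjured periosteum. Most of the genes past 2-fold were higher at day 3, and this balance rested on the scaling. Counting genes that reached 50 CPM in either library, 3648 in all, day 3 was higher by 2-fold or more for 1116 (30.6%) and lower by as much for 203 (5.56%). Their median log2 ratio was 0.54. TMM scaling, which sets the bulk of genes to be level, multiplied every ratio by 0.754. It gave 436 higher and 608 lower of 3490, with higher genes making up 41.8% of those past 2-fold instead of 84.6%. A ratio under 1.33 therefore lies below 1 on that scale. Since the same factor scaled every ratio, the genes past 2-fold on both scales follow from these counts. They were the 436 higher under TMM scaling and the 203 lower by CPM. Ratios below divide the day-3 CPM by the uninjured CPM and carry 95% counting intervals.

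Ribosomal protein genes were on the lower side. Over 83 of them the sum was 216734 CPM in the uninjured C1q barcodes and 131732 CPM at day 3, with 35 at least 2-fold lower and 1 higher. The 13 mitochondrial genes summed to 29317 and 44370 CPM. With every barcode thinned to 2000 UMIs, 1198 of 3719 genes were higher (32.2%) and 243 lower (6.53%). With at most 5% mitochondrial UMIs the counts were 1100 (30.2%) and 182 (4.99%) of 3644. Barcodes with a Y-linked UMI and no Xist alone (666 and 530) gave 1125 higher (30.7%) and 241 lower genes (6.58%) of 3662.

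The genes with the highest ratios included a regulator, an enzyme and secreted proteins found in macrophages, beside genes of neutrophils. Cebpb, a transcription factor of myeloid cells, stood at 25.7 CPM in the uninjured C1q barcodes and 649 CPM at day 3 (ratio 25.3, 22.7 to 28.3). In the EGFP-rich barcodes Cebpb stood at 9.30 and 225 CPM, so it was higher at day 3 outside the C1q barcodes too. Arg1, arginase, a marker of alternative activation, stood at 3.21 and 171 CPM (53.4, 39.3 to 74.5), and at 0.0713 and 3.98 CPM in the EGFP-rich barcodes. At 2000 UMIs each, 0.728% of uninjured and 18.3% of day-3 C1q barcodes had an Arg1 UMI, against 0 and 0.782% of the EGFP-rich ones.

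Thbs1, Mmp9 and Mmp8 were also among the 15 highest ratios. Thbs1, thrombospondin, which binds matrix and activates TGF-β, stood at 29.7 and 275 CPM (9.24, 8.33 to 10.3), but its level in the EGFP-rich barcodes was higher in each library, at 355 and 576 CPM. Mmp9, a gelatinase also of osteoclasts, stood at 13.1 and 121 CPM. Mmp8, a collagenase of neutrophils and some macrophages, stood at 9.62 and 249 CPM (25.8, 21.6 to 31.1). Mmp12, a protease gene that led cluster 0 and was not among the 15, stood at 53.5 and 395 CPM (7.38, 6.84 to 7.98), and 4.28% and 21.6% of C1q barcodes had a UMI at equal depth. Pla2g7 stood at 35.8 and 296 CPM (8.27, 7.53 to 9.10). Of the remaining genes of the 15, the chemokine Cxcl3 stood at 1.17 and 59.8 CPM, the protease inhibitor Spint1 at 4.70 and 59.4 CPM, the receptor Notch1 at 17.8 and 168 CPM and Ifitm1, an interferon-induced membrane protein, at 5.32 and 152 CPM.

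Several of the highest ratios belonged to neutrophil genes, and neutrophil transcripts were widespread in the day-3 library. S100a8 and S100a9, calcium-binding proteins of neutrophils, stood at 16.6 and 2.74 CPM in the uninjured C1q barcodes and at 608 and 464 CPM at day 3. Ngp, a granule protein, stood at 0.782 and 138 CPM. Chil3, a chitinase-like protein of macrophages and neutrophils, had 1 UMI in the uninjured C1q barcodes and 1731 at day 3 (ratio 678, 122 to 26816). The neutrophil list summed to 34.6 and 1596 CPM in the C1q barcodes. It summed to 13.5 and 467 CPM in the EGFP-rich barcodes, and to 18782 CPM in day-3 barcodes low in both EGFP and C1q. All 12 genes of the list were above 0 at day 3.

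Barcodes rich in these transcripts were found at day 3. At least 10 neutrophil-list UMIs per 10000 were found in 0 of 1121 uninjured C1q barcodes (exact upper limit 0.329%) and in 870 of 4918 day-3 ones (17.7%, 16.6 to 18.8). Leaving out those 870, which were chosen by these very transcripts, lowers the ratios of the list's genes by its construction. The ratio then was 4.97 for S100a8, 20.3 for S100a9, 12.1 for Ngp and 139 for Chil3. It was 13.9 for Mmp8. Of 9 neutrophil genes at 10 CPM, 9 were at least 2-fold higher (median 5.52, and 5.28 under TMM scaling over 8), of which S100a8 alone reached 10 CPM in the uninjured C1q barcodes. For Arg1, Cebpb, Mmp12 and Pla2g7 the ratios were then 50.9, 24.1, 6.62 and 7.16. This step was chosen after the data were seen. Removing barcodes by rank of doublet score, a score for mixed droplets, took out 508 day-3 C1q barcodes (10.3%) and 7 uninjured ones (0.624%). The ratios of S100a8, S100a9 and Ngp were then 9.78, 41.9 and 24.0, against 36.6, 170 and 176 with all C1q barcodes. Those of Arg1 and Cebpb were 54.4 and 25.3.

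The lowest ratios were led by matrix genes of fibroblasts. Col1a1, a chain of type I collagen, stood at 127 and 9.05 CPM (ratio 0.0711, 0.0626 to 0.0805), and at 1547 and 261 CPM in the EGFP-rich barcodes. Col3a1, Col1a2, Sparc, the collagen cross-linking enzyme Lox and the collagen chaperone Serpinh1 had ratios of 0.129 to 0.192. The fibroblast list summed to 672 and 122 CPM in the C1q barcodes, and to 7786 and 3775 CPM in the EGFP-rich ones. Of 8 fibroblast genes at 10 CPM, 7 were at least 2-fold lower (median -2.50, and -2.96 under TMM scaling over 9). All 8 reached 10 CPM in the uninjured C1q barcodes, but only 4 did so at day 3. The others had to be lower there. Without the barcodes rich in that list the ratios of Col1a1, Col3a1, Col1a2, Sparc, Lox and Serpinh1 were 0.157 to 0.485, and the barcodes left out were chosen by these very transcripts.

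The other genes among the 15 lowest were not of that kind. Ifi27l2a, an interferon-induced gene, stood at 383 and 105 CPM (0.274, 0.263 to 0.287), and at 12.1 and 3.75 CPM in the EGFP-rich barcodes. Tmem171, a membrane protein that was among the genes highest in the C1q barcodes, stood at 56.1 and 13.7 CPM. Rnaset2a, a lysosomal ribonuclease with a close copy in the mouse genome, stood at 57.1 and 8.19 CPM, and its count is uncertain where reads fit both copies. Erh, Nme2, Nme4, Selenom, Grcc10 and Dynlt1f, genes of several housekeeping functions, had ratios of 0.196 to 0.270. Where such genes are short or have close copies, their counts may depend on how reads were assigned, which was not tested.

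Of the marker genes that the rule did not use, Apoe was higher at day 3 on both scales and Pf4 on the CPM scale only. The C1q genes are given as a description, since the rule used them. C1qa stood at 1299 and 1043 CPM, C1qb at 2521 and 1108 CPM and C1qc at 1656 and 806 CPM. The ratios of C1qa, C1qb and C1qc were 0.803, 0.440 and 0.487, and the limit on their sum bears on them. Apoe stood at 2436 and 4589 CPM (1.88, 1.86 to 1.91; 1.42 under TMM scaling). Pf4 stood at 4343 and 5296 CPM, a ratio of 1.22 that became 0.920 under TMM scaling. With at least 20 C1q UMIs per 10000 required, the ratio of C1qa was 0.976 and that of C1qc 0.548.

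The gene lists are given by counts over their genes that reached 10 CPM in either library. Of all 8319 genes that did, 31.6% lay 2-fold or more above the uninjured level and 4.48% as far below, with a median log2 ratio of 0.63. A list near these shares is not set apart from the rest. A gene that reaches 10 CPM only at day 3 had to be higher there. One that reaches it only in the uninjured C1q barcodes had to be lower at day 3. In the uninjured C1q barcodes 7 of 9 complement, 4 of 6 inflammatory cytokine and 6 of 9 interferon genes reached 10 CPM. So did 11 of 13 chemokines and 4 of 5 chemokine receptors. The same held for 17 of 18 core, 4 of 5 Fc receptor, 15 of 16 scavenger and 14 of 15 lipid genes. It also held for 21 of 22 transcription factor and 12 of 13 stress genes. Both scalings are given for each median.

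Core macrophage genes past 2-fold were higher by CPM and lay on both sides under TMM scaling. Of 18 core genes, 7 were at least 2-fold higher and 0 lower, with a median log2 ratio of 0.17. Under TMM scaling 4 were higher and 5 lower, with a median of -0.24. Itgam, an integrin for complement fragments, stood at 108 and 354 CPM (3.27, 3.09 to 3.46), Cx3cr1, the fractalkine receptor, at 44.4 and 140 CPM, and Mertk, a receptor for dying cells, at 9.08 and 43.2 CPM. Mertk, also on the scavenger list, reached 10 CPM only at day 3 and so had to be higher there. Maf stood at 278 and 647 CPM. Below 1 were Tyrobp at 2607 and 1445 CPM (0.554, 0.546 to 0.562), the lysosomal marker Cd68 at 520 and 295 CPM, and Aif1, an actin-binding protein, at 219 and 122 CPM. Lyz2 stood at 15514 and 8849 CPM. Csf1r, the receptor for the macrophage growth factor, chosen after its values were seen, stood at 423 and 514 CPM and was found in 59.2% and 61.3% of C1q barcodes at equal depth.

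Resident genes past 2-fold lay on both sides. Of 8 resident genes at 10 CPM, 2 were at least 2-fold higher and 1 lower, with a median of -0.05. Under TMM scaling 1 of 9 was higher and 2 lower, with a median of -0.49. F13a1 stood at 67.1 and 348 CPM (5.19, 4.84 to 5.57), Stab1 at 207 and 442 CPM (2.14, 2.05 to 2.23; 1.61 under TMM scaling) and Mrc1 at 231 and 461 CPM (1.99, 1.92 to 2.07). Folr2 was lower, at 48.0 and 15.1 CPM (0.314, 0.278 to 0.353). Gas6, Selenop, a selenium carrier, and Igf1 had ratios of 0.981, 0.946 and 0.771. Lyve1, Timd4 and Vsig4 were near 0 at day 3, with 5, 0 and 21 UMIs. Gas6 and Igf1 were far lower at day 3 in the EGFP-rich barcodes, at 10.9 and 5.82 CPM.

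Of the genes of antigen presentation, Cd74, the invariant chain of MHC class II, was past 2-fold. Of 6 MHC class II genes at 10 CPM, 4 were at least 2-fold higher and 0 lower, with a median of 3.00 (2.59 under TMM scaling). The 3 that reached 10 CPM in the uninjured C1q barcodes were Cd74, H2-DMa and H2-DMb1, and the other 3 had to be higher at day 3. Cd74 stood at 11.3 and 138 CPM (12.2, 10.4 to 14.6) and H2-Aa at 0.469 and 36.2 CPM. H2-DMa and H2-DMb1 had ratios of 1.25 and 0.989. In the EGFP-rich barcodes at day 3, Cd74 stood at 5.12 CPM. Few barcodes carried it, as 8.40% of day-3 C1q barcodes had a Cd74 UMI, with up to 318 per 10000.

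Of 9 complement genes, 3 were at least 2-fold higher and 2 lower (median 0.49, and 0.09 under TMM scaling, with 2 higher). The 2 lower ones, C1qb and C1qc, were used by the rule and are no result. C3, the central component, stood at 1.25 and 15.3 CPM, and C3ar1, the C3a receptor, at 201 and 408 CPM. Of 5 Fc receptor genes, 2 were at least 2-fold higher and 0 lower (median 0.05, and -0.35 under TMM scaling, with 1 higher). Fcgr2b, the inhibitory IgG receptor, stood at 28.2 and 196 CPM (6.95, 6.25 to 7.75), with a UMI in 6.37% and 29.6% of barcodes at equal depth. The activating receptors Fcgr1 and Fcgr3 had ratios of 1.04 and 0.928.

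Of 16 scavenger genes, 8 were at least 2-fold higher and 0 lower (median 1.05, and 0.64 under TMM scaling, with 4 higher). Axl, a receptor for Gas6, stood at 20.6 and 63.1 CPM and Scarb2, a lysosomal receptor, at 34.4 and 109 CPM. Of 21 lysosomal genes, 12 were at least 2-fold higher and 0 lower (median 1.06, and 0.66 under TMM scaling, where 4 stayed past 2-fold). Lgmn, legumain, a lysosomal protease, stood at 397 and 1924 CPM (4.84, 4.71 to 4.98), and at 65.2 and 80.4 CPM in the EGFP-rich barcodes. Ctsd stood at 1522 and 3881 CPM, Psap at 1499 and 3976 CPM and the membrane protein Lamp1 at 380 and 1147 CPM. Lysosomal sums were 12291 and 25961 CPM.

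Of 15 lipid genes, 3 were at least 2-fold higher and 1 lower (median 0.77, and 0.36 under TMM scaling). Abca1, the cholesterol exporter, stood at 17.7 and 125 CPM (ratio 7.09), Soat1, which esterifies cholesterol, at 75.7 and 230 CPM, and Gpnmb, a glycoprotein of lipid-laden macrophages, at 199 and 570 CPM. Ch25h, an oxysterol-making enzyme, was the lower one, at 18.5 and 8.53 CPM. It reached 10 CPM only in the uninjured C1q barcodes and so had to be lower at day 3. Trem2 and Lgals3 had ratios of 0.769 and 0.782.

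Of the iron genes, the ferritin light chain was lower at day 3 and the heavy chain close to level. Ftl1 stood at 53133 and 16234 CPM (0.306, 0.304 to 0.307), while Fth1 stood at 30380 and 31159 CPM (1.03, 1.02 to 1.03; 0.773 under TMM scaling). Ftl1 has many near-identical copies in the mouse genome, and its count may depend on how reads shared between them were treated. This was not tested. In the EGFP-rich barcodes Ftl1 stood at 12399 and 5768 CPM. Tfrc, the transferrin receptor, stood at 30.4 and 115 CPM (3.76, 3.39 to 4.19), Trf, transferrin, at 27.9 and 61.9 CPM, and Slc40a1 at 31.9 and 52.4 CPM. Of 11 iron and haem genes, 2 were at least 2-fold higher and 1 lower (median 0.41, and 0.01 under TMM scaling, with 1 higher and 2 lower).

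Of 6 alternative activation genes at 10 CPM, 4 were at least 2-fold higher and 0 lower (median 1.38, and 0.98 under TMM scaling, with 3 higher). Arg1 and Chil3 reached 10 CPM at day 3 only and had to be higher there. The others were Cd200r1, an inhibitory receptor, at 41.2 and 114 CPM, and Tgm2, transglutaminase 2, at 22.9 and 56.6 CPM. Of 6 inflammatory cytokine genes at 10 CPM, 3 were at least 2-fold higher (median 1.17, and 0.42 under TMM scaling, with 2 of 5 higher). Nlrp3 stood at 25.7 and 72.9 CPM, and the cytokine Osm at 4.54 and 13.1 CPM. Tnf had a ratio of 1.36 (1.20 to 1.53). Il1b, chosen after its values were seen, stood at 0.313 and 4.69 CPM, and the nitric oxide synthase Nos2 had 0 UMIs in each library.

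Chemokines past 2-fold lay on both sides, and chemokine receptors past 2-fold were higher at day 3. Of 13 chemokines, 4 were at least 2-fold higher and 2 lower, with a median of 0.06. Under TMM scaling 2 of 12 were higher and 4 lower, with a median of -0.38. Ppbp, a neutrophil attractant, stood at 12.4 and 89.6 CPM and Cxcl2 at 27.4 and 65.4 CPM. Ccl4 stood at 119 and 41.9 CPM (0.353, 0.328 to 0.380) and Ccl12 at 36.3 and 10.0 CPM. Of 5 chemokine receptors, 4 were at least 2-fold higher and 0 lower (median 2.41, and 2.00 under TMM scaling). Ccr1 stood at 32.5 and 173 CPM (5.32, 4.81 to 5.89), Ccr2, the monocyte receptor for Ccl2, at 15.1 and 83.4 CPM, and Cxcr4, the receptor for Cxcl12, at 2.82 and 49.1 CPM.

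Of 16 secreted growth factor genes, 7 were at least 2-fold higher and 1 lower (median 0.87, and 0.46 under TMM scaling, with 6 higher and 1 lower). In the uninjured C1q barcodes 12 of the 16 reached 10 CPM, and the others, Vegfa among them, had to be higher at day 3. Vegfa, the vascular growth factor, stood at 2.66 and 35.3 CPM (13.3, 9.45 to 19.3), and at 8.31 and 93.0 CPM in the EGFP-rich barcodes. Pdgfb stood at 11.5 and 47.1 CPM, whereas Tgfb1 stood at 254 and 272 CPM. Of 16 protease and inhibitor genes, 9 were at least 2-fold higher and 2 lower (median 1.22, and 0.81 under TMM scaling, with 7 higher and 3 lower). Here 11 of the 16 reached 10 CPM in the uninjured C1q barcodes, and the others had to be higher at day 3. The 2 lower ones, Mmp2 and Timp3, stood at 21.7 and 5.43 CPM and at 32.8 and 11.8 CPM, and both were highest in cluster 5, at 151 and 236 CPM. Without the barcodes rich in the fibroblast list their ratios were 0.442 and 0.680. Timp3 was not past 2-fold in 4 of 15 alternative settings. Mmp2 reached 10 CPM only in the uninjured C1q barcodes and so had to be lower at day 3.

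Of 22 macrophage transcription factor genes, 12 were at least 2-fold higher and 1 lower, with a median of 1.11. Under TMM scaling 7 of 23 were higher and 2 lower, with a median of 0.70. Hif1a, the regulator of the hypoxia response, stood at 71.2 and 314 CPM (4.41, 4.12 to 4.72), and Klf4 at 8.84 and 40.5 CPM. Klf4 reached 10 CPM only at day 3 and so had to be higher there. Id3, an inhibitor of helix-loop-helix factors, stood at 234 and 101 CPM, and Spi1 at 544 and 360 CPM. Of 16 glycolysis genes, 0 were past 2-fold (median 0.33, and -0.07 under TMM scaling). Of 9 interferon genes, 5 were at least 2-fold higher and 2 lower (median 1.00, and 0.57 under TMM scaling, with 3 of 8 higher and 2 lower). Isg15 and Ifi27l2a were the lower ones.

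Stress and dissociation genes were counted as signs of RNA quality. Of 13 stress genes, 4 were at least 2-fold higher and 0 lower (median 0.61, and 0.20 under TMM scaling, with 0 higher and 1 lower). Hspa5, a chaperone of the endoplasmic reticulum, stood at 232 and 573 CPM, and the metallothionein Mt1 at 1015 and 722 CPM. Of 6 dissociation and RNA quality genes, 2 were at least 2-fold higher, and Fos stood at 129 and 180 CPM.

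Of 6 monocyte genes at 10 CPM, 6 were at least 2-fold higher (median 2.98, and 2.57 under TMM scaling, with 4 higher). Of these, 3 reached 10 CPM in the uninjured C1q barcodes, and the other 3 had to be higher at day 3. Ly6c2, the marker of inflammatory monocytes, stood at 1.80 and 40.2 CPM, Plac8 at 1.88 and 21.1 CPM and the integrin Itga4 at 35.0 and 83.0 CPM. Of 6 osteoclast genes, 6 were at least 2-fold higher (median 1.91, and 1.5 under TMM scaling, with 5 higher), again with 3 at 10 CPM in the uninjured C1q barcodes. Acp5, another of the 6, was used by the rule and is no result. Ctsk, cathepsin K, stood at 9.47 and 47.3 CPM and Tnfrsf11a, RANK, at 44.2 and 93.4 CPM. The osteoclast list summed to 105 and 377 CPM, and to 4866 and 7955 CPM in barcodes that failed only on Acp5. Acp5 is part of these sums, so the rule itself set part of the gap.

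**Figure D4:**
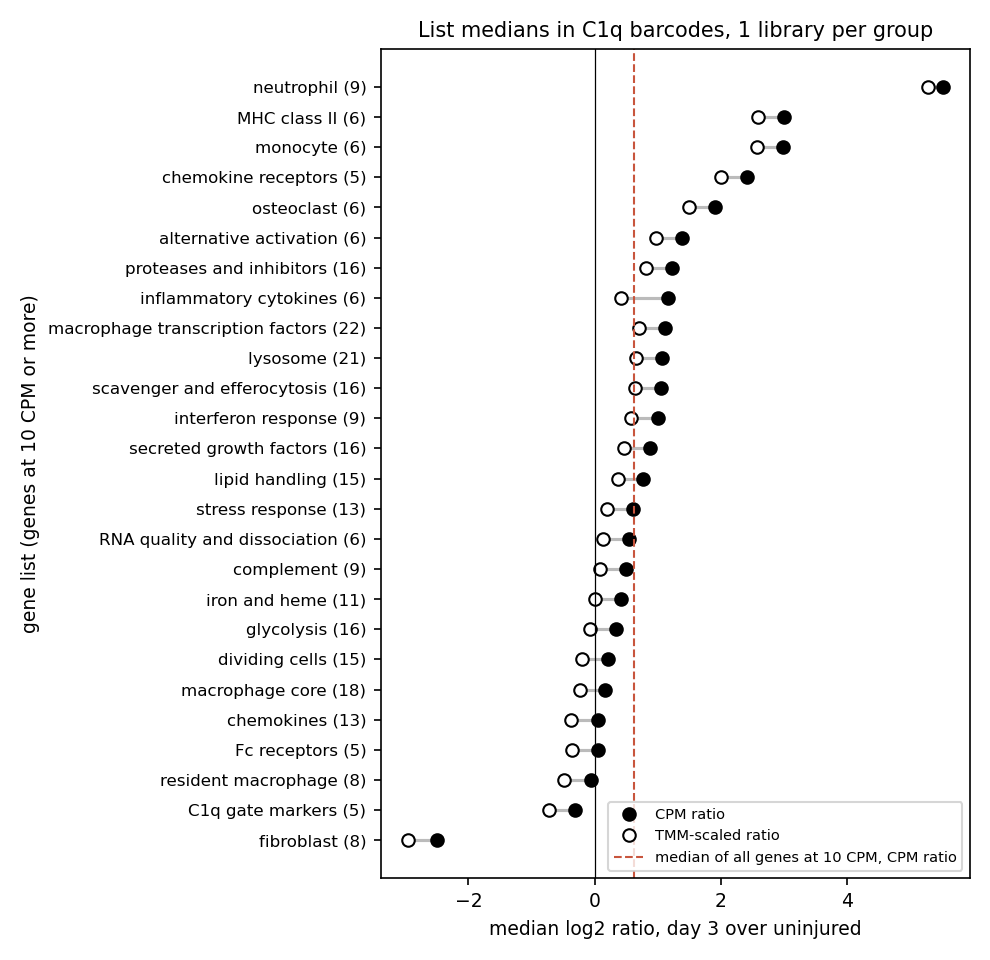
Median log2 ratio, day 3 over uninjured, for each gene list with at least 5 genes at 10 CPM, from CPM (filled) and from TMM-scaled values (open), with the number of genes in parentheses and the median of all genes, 0.63, as a dashed line. The neutrophil list lies farthest to the right at 5.52 and the fibroblast list farthest to the left at -2.50, and several macrophage lists lie on different sides of 0 on the 2 scales.

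Shares of barcodes were compared after each barcode was thinned to 2000 UMIs, which kept 1099 of 1121 uninjured and 4484 of 4918 day-3 C1q barcodes. Barcodes holding 2 or more UMIs from a list of 15 mitotic genes counted as dividing. Their share was 41.1% (38.2 to 44.1) in the uninjured library and 30.5% (29.2 to 31.9) at day 3. Unthinned shares were 74.0% and 43.5%, and the EGFP-rich barcodes had 30.4% and 36.4% at equal depth. Just under the limit, with 1 UMI, were 222 uninjured and 747 day-3 barcodes. By CPM, 2 of the 15 genes were at least 2-fold higher and 0 lower at day 3, with a median log2 ratio of 0.21. That was below the 0.63 of all genes at 10 CPM. Under TMM scaling 1 was higher and 1 lower, with a median of -0.19, so the direction of the level depended on the scaling. Mki67, a marker of cycling cells, stood at 87.7 and 183 CPM, and Birc5, survivin, at 229 and 141 CPM.

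A barcode counted as resident with at least 2 UMIs over 7 genes, of which Mrc1, F13a1 and Folr2 reached 10 CPM in each library. The share was 19.0% (16.7 to 21.5) in the uninjured library and 49.2% (47.7 to 50.7) at day 3. F13a1 and Mrc1 had log2 ratios of 2.38 and 0.996, but Folr2 had one of -1.67. Over the whole resident list the median was -0.05, and -0.49 under TMM scaling, so the share does not stand for that list. Unthinned shares were 73.1% and 77.3%, at unequal depths, and the EGFP-rich barcodes had 0.191% and 0.632%. As 739 day-3 barcodes lay at the limit and 996 just under it, the share is a range and not a type.

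MHC class II high barcodes, with at least 4 UMIs over Cd74, H2-Aa, H2-Ab1 and H2-Eb1, were rare in each library. There was 1 of 1099 in the uninjured library (0.0910%, 0.00230 to 0.506) and 58 of 4484 at day 3 (1.29%, 0.984 to 1.67). In the EGFP-rich barcodes the share was 0.0477% and 0.120%. Unthinned shares were 0.803% and 2.28%.

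At equal depth Cebpb showed the widest gap of the 20 genes plotted, which were in part chosen after their values were seen. A Cebpb UMI was found in 6.73% (5.32 to 8.38) of uninjured and 67.9% (66.5 to 69.3) of day-3 C1q barcodes, against 1.67% and 34.4% of the EGFP-rich ones. For Lgmn the shares were 52.8% and 91.6%, against 13.3% and 14.1%. For Tyrobp they were 98.4% and 87.0%, and for Igf1 56.0% and 43.6%. For Gas6 they were 45.0% and 44.2%, and for Pf4 96.4% and 93.1%.

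**Figure D5:**
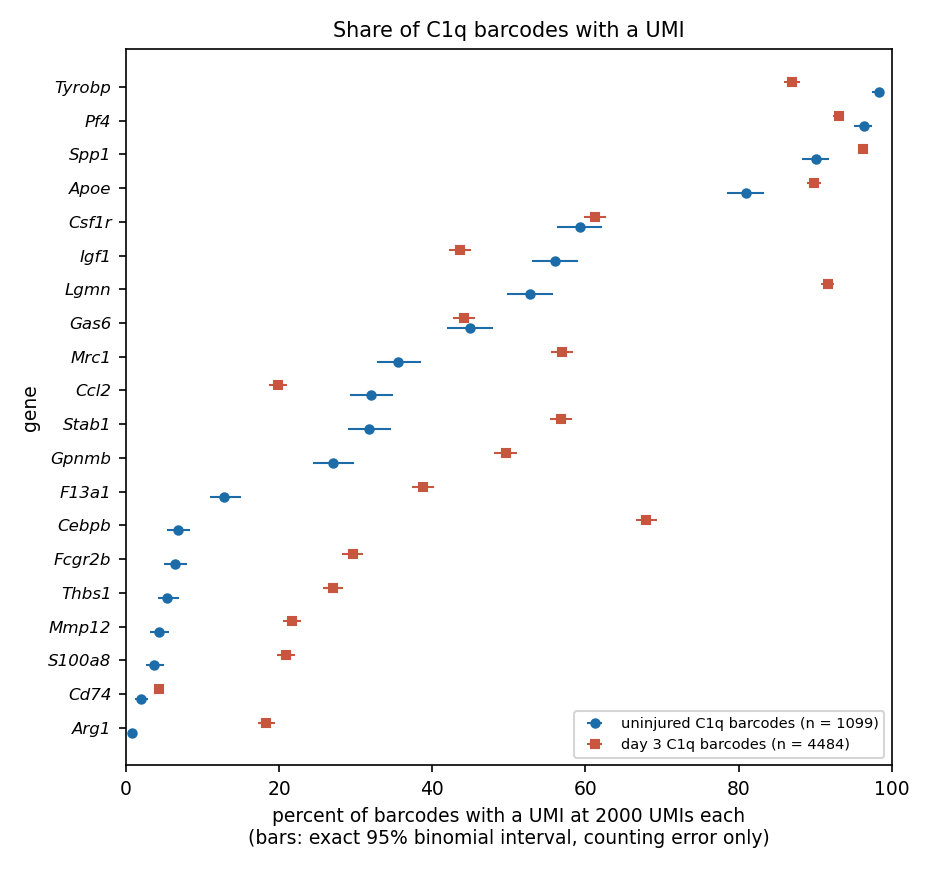
Percent of C1q barcodes with a UMI for 20 genes after thinning to 2000 UMIs, in the uninjured library (circles, 1099 barcodes) and at day 3 (squares, 4484 barcodes), with exact 95% binomial intervals for counting error. Cebpb lies at 6.73% and 67.9%, and Pf4 at 96.4% and 93.1%.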

How the data were processed

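Values are counts of UMIs per gene and barcode, deposited by the authors as 1 matrix per library whose header names software version 3.1.0, per the file headers. The submitters' processing notes list Seurat 4.0.1, the mm10 build and Cell Ranger. The sources used here do not give how barcodes were called as cells. The molecule is labelled as genomic DNA, although the values are transcript counts.

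The members and the gene lists were chosen with earlier results of these data known. From 4573 and 16332 deposited barcodes, those under 500 genes or 1000 UMIs (69 and 1412) and then those above 10% mitochondrial UMIs (73 and 457) were removed. UMIs were summed over members with pandas 2.3.3 and numpy 2.4.6 (scipy 1.17.1, Python 3.11.15). Ratios have exact binomial 95% intervals conditional on the summed counts, and shares have exact Clopper-Pearson intervals. TMM factors came from edgeR 4.0.16 in R 4.3.3. No test was run, since each group had 1 library. The ratio rule was tested on simulated counts without spread between libraries, and the thinning on the deeper uninjured members. Clustering, TMM scaling and the doublet step were not tested in this way.

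Members were clustered alone (scanpy 1.11.5, leidenalg 0.10.2; 2000 variable genes, 20 components, 15 neighbours, resolution 0.5). A doublet caller marked 4 and 2 barcodes with its automatic threshold, too few to have worked, so doublets were kept in, and 157 and 1673 removed by score rank served as an alternative. Genes were named by rule: the 15 with the highest and the 15 with the lowest ratio at 50 CPM or more, the 15 with the highest level, the 15 with the highest excess over other uninjured barcodes, the marker genes, 6 leading genes per cluster, and per list the 3 with the highest level and the 3 highest and 3 lowest ratios at 10 CPM or more. From the ranking by ratio, 28 higher and 42 lower genes of the kinds the rule excepts were left out. The ranking by level left out the same kinds, ribosomal protein and mitochondrial genes among them. Some genes that the rule names are not reported here.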

Additional observations from a re-analysis of the deposited data

How the results depend on the processing

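No paired analysis was possible because each group had 1 library, and no replicate could be left out. Of 124 named genes past 2-fold, 99 were past it on the same side in all 15 settings and 0 reversed. With TMM factors 19 of the 87 higher ones were under 2-fold. Many of these genes were named for their extreme ratios, so their stability does not stand for that of all genes. By CPM, 1116 (30.6%) of 3648 genes were higher and 203 (5.56%) lower at day 3. With TMM factors the counts were 436 (12.5%) and 608 (17.4%) of 3490. They were 2625 (31.6%) and 373 (4.48%) of 8319 at a minimum of 10 CPM. At 100 CPM 523 of 1913 genes (27.3%) were higher. The uninjured share passing the C1q rule was 26.7% at a C1q limit of 5, 22.9% at 20, 16.3% with EGFP under 1 and 20.0% for male barcodes. At day 3 it was 41.1%, 22.9%, 29.2% and 32.7% in that order, 32.4% with Acp5 under 2, 30.7% with at least 5 C1q UMIs and 28.0% without neutrophil-list barcodes. The dividing share at day 3 was 27.3% at a C1q limit of 20, 27.8% with doublets removed, 33.9% at 5% mitochondrial UMIs, 27.2% for male barcodes, 32.1% without neutrophil-list barcodes and 43.5% unthinned, and the uninjured one was 74.0% unthinned. The MHC class II share of the uninjured library was 0 at a C1q limit of 20 and at 5% mitochondrial UMIs and 0.803% unthinned, and the day-3 one was 2.28% unthinned. The resident share was 23.0% in the uninjured library with EGFP under 1 and 73.1% unthinned. At day 3 it was 46.3% and 50.7% at C1q limits of 5 and 20, 47.7% with at least 5 C1q UMIs, 46.4% at 5% mitochondrial UMIs, 46.5% for male barcodes, 46.1% without neutrophil-list barcodes and 77.3% unthinned. Resolution 1 gave 10 clusters. The cause was not tested. The alternatives that leave out barcodes rich in the neutrophil or fibroblast list were chosen after seeing the data.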
